A study of Mus musculus with 12 samples.

Results

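The response described here is the difference between DNFB-treated and untreated ears of wild-type mice, labelled C57BL/6J. DNFB (dinitrofluorobenzene) is a small reactive chemical that binds skin proteins and acts as a contact allergen. The 6 arrays of these mice were taken out of the 12 of the study by their labels, 3 from DNFB-treated allergic right ears and 3 from the untreated left ears of the same 3 females. The other 6 arrays come from females labelled Cnr1-/-/Cnr2-/-, a double knockout of the cannabinoid receptor genes, and were used for the shared estimate of the spread and for 1 comparison at the end. All mice were 8 to 10 weeks old. The abdomen was shaved and painted with 50 µl of 0.2% DNFB on 2 days in a row for sensitization, and on day 5 the ear received 10 µl of 0.3% DNFB. Whole ears were frozen 48 h after the challenge, which the labels call the 2nd. Each array received 10 µg of labelled cRNA, for which 5 µg of total RNA had been used.

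Both kinds of ear come from mice with the same sensitization, so the difference is that of a challenged and an unchallenged ear of sensitized mice. No array comes from a challenged ear of an unsensitized mouse. The allergic response and direct effects of DNFB on the skin therefore cannot be told apart. The labels call the left ears untreated, while the protocol also names controls given acetone and olive oil, the solvent of DNFB, without tying them to these arrays. If the left ears received no solvent, effects of the solvent and of painting are part of every difference below. An untreated ear of a challenged mouse can also carry systemic effects of the challenge on the other ear. Whole ears hold epidermis, dermis, cartilage, muscle, fat, vessels and nerves, and in such bulk samples fewer cells of a type and less RNA per cell cannot be told apart.

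In contact hypersensitivity, T cells primed by an earlier encounter with a hapten return to the skin at the second encounter and release cytokines, above all interferon gamma and interleukin 17. Keratinocytes, endothelium and resident macrophages answer with chemokines and adhesion molecules that bring in neutrophils and monocytes. The epidermis thickens and switches to a keratin and envelope programme also seen in wounds.

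The measurement was a one-colour Affymetrix mouse array read as 1 linear intensity per probe set, which carries no read depth, so the number of arrays sets the precision. Between 58.33% and 59.7% of the probe sets reached an intensity of 16 on the DNFB arrays, against 60.31% to 61.49% on the control arrays. Log2 intensities of arrays of 1 wild-type group correlated at 0.9661 to 0.9707 across probe sets (6 pairs), and those of a DNFB with a control array at 0.8863 to 0.8942 (9 pairs). By the hybridization times in the instrument records, the arrays went through the fluidics station in 3 runs. Run 1 held the 3 control arrays and DNFB array 1, while DNFB arrays 2 and 3 were in run 2 with arrays of control ears labelled Cnr1-/-/Cnr2-/-. The first of the DNFB values given for a gene is therefore the one processed together with the control arrays, and only run 1 gives a comparison within a run. It sets a single DNFB array against the 3 control arrays, and that array is assumed to vary like those of the other groups. Run as a fixed block gave the same list medians as run 1 alone, so these settings are 1 check of the run and not 2. As a sign of RNA quality, the Actb control probe sets at the 3' end exceeded those at the 5' end by 0.524 ± 0.0826 log2 units on the DNFB and 0.655 ± 0.0682 on the control arrays (SD, n = 3 each). For Gapdh the same measure was -0.346 ± 0.0257 on the DNFB and -0.396 ± 0.0828 on the control arrays. The 2 genes thus ordered the groups in opposite ways.

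The keratinocyte markers Krt5, Krt14 and Krt10 summed to intensities of 20952 to 23524 in DNFB-treated ears and 19831 to 22964 in control ears, and none of the 3 passed the test described below. All 3 neutrophil markers (Csf3r, S100a9, Cxcr2), all 3 monocyte or macrophage markers (Csf1r, Adgre1, Cd68) and both general leukocyte markers (Ptprc, Laptm5) rose. The leukocyte pair summed to 2003 to 2696 in DNFB-treated and 642 to 662 in control ears, the neutrophil markers to 3954 to 6197 and 57.7 to 128, and the monocyte markers to 2760.4 to 3229 and 1545 to 1703. Most of the neutrophil sum was S100a9. The neutrophil receptor genes were far lower in intensity, with Csf3r at 188, 157 and 251 in the DNFB-treated ears, against 32.5, 9.05 and 17.3 in the control ears, and Cxcr2 at 35.3, 61.5 and 40.8 in the DNFB-treated ears, against 7.78, 15.2 and 12.0 in the control ears. The T cell markers Cd3e, Cd3g and Cd8a did not pass at their brightest probe sets, which summed to 182 to 211 in DNFB-treated and 162 to 186 in control ears, but 3 of the 4 Cd8a probe sets were called higher. Of the fibroblast markers Col1a1 and Dcn fell and Pdgfra did not pass, and of the skeletal muscle markers Ckm and Myh4 fell and Acta1 did not pass. For Col1a1 and for Ckm 1 of 2 probe sets was called lower. No marker tested was at 0 on any of the 6 arrays. The part of these marker shifts in the results below was not tested.

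Of 13383 genes tested, 2545 (19.0%) were higher and 3216 (24.0%) lower in DNFB-treated than control ears. A gene was called where the adjusted p of the limma fit over 29460 probe sets was under 0.05. On the deposited values the rises were larger and the falls more numerous. At least 2-fold differences were seen for 1007 of the higher and 817 of the lower genes, and at least 8-fold differences for 174 higher and 9 lower genes. Among the calls, 2536 of the higher genes were higher and 3207 of the lower genes lower in the treated than the untreated ear of every mouse. Overlapping groups were seen for 60 called genes. The calls were made on these same ears, so these counts follow largely from the threshold and are not separate support. The median log2 difference of all genes was -0.084. With each array centred on its median it was 0.0583, and 3213 genes were then higher and 2069 lower, so the balance of rises and falls depends on the scaling. With run as a fixed block 1450 of the 13383 genes were higher and 1613 lower. List counts given below for a setting are to be read against the counts of all genes in that setting, not against 19.0% and 24.0%. All log2 differences below are DNFB-treated minus control on the deposited scale, given ± SE of the fit (n = 3 ears per group).

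**Figure D1:**
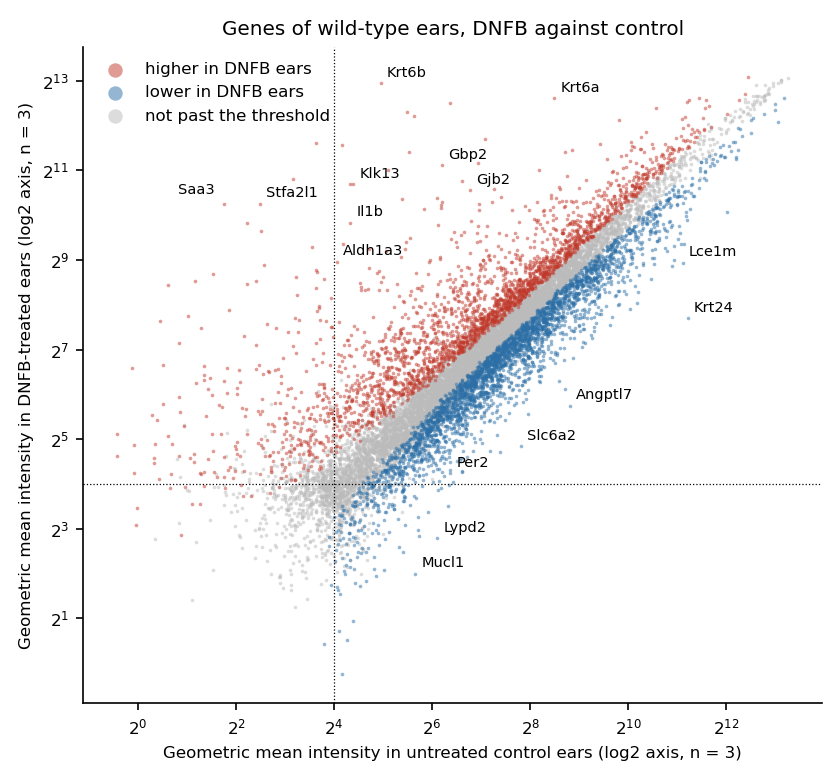
Geometric mean intensity of each of the 13383 genes in DNFB-treated ears (vertical, log2 axis, n = 3) against control ears (horizontal, log2 axis, n = 3). Red points are the 2545 genes higher and blue points the 3216 genes lower in DNFB-treated ears, grey points did not pass, and the dotted lines mark an intensity of 16. Red points reach much farther from the diagonal than blue ones.

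The largest rises were taken among called genes without overlap and at 16 or above on all 6 arrays. Lack of overlap is thus part of this choice. These rises were those of keratins and envelope proteins, of kallikreins, of S100a8 and S100a9, of Il1b and of the interferon-induced Gbp2. Krt6b, a keratin of wounded epidermis, had intensities of 7859.6, 8449 and 7533 in the DNFB-treated ears, against 57.8, 30.8 and 16.7 in the control ears. Krt16, the keratin that pairs with the Krt6 chains, read 4256, 5330.4 and 4759.8 in the DNFB-treated ears, against 65.2, 62.9 and 29.9 in the control ears. In both, control ear 3 was lowest, and the differences were 8.00 ± 0.45 (adjusted p = 2.3e-06) and 6.58 ± 0.48 (adjusted p = 8.3e-06). The treated Krt6b values lay near the highest intensity of an array, 8124 to 9243 on the DNFB arrays. S100a9, which pairs with S100a8 to form calprotectin, read 3731, 5978 and 5873 in the DNFB-treated ears, against 87.9, 33.4 and 31.3 in the control ears. Control ear 1 was the highest control for S100a9 and S100a8, and DNFB-treated ear 1, from the same mouse, the lowest treated one. Il1b, the secreted interleukin 1 of myeloid cells, read 840.1, 843 and 1076 in the DNFB-treated ears, against 16.5, 22.1 and 22.4 in the control ears (5.50 ± 0.31, adjusted p = 2.3e-06). Sprr1b and Sprr2d, proline-rich proteins of the cornified envelope, differed by 5.89 ± 0.56 and 4.98 ± 0.43.

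The ranking by p weighs the size of the difference against a spread shared by all 4 groups. Some of its first 10 genes had ears close together within each group. Others did not, such as Klk13 at 1312, 2159 and 1599.5 in the DNFB-treated ears. Krt6a read 6228, 6553 and 6123 in the DNFB-treated ears, against 412, 347 and 327 in the control ears, which gave 4.13 ± 0.11 with the lowest p of all genes (adjusted p = 5.8e-08). Clec7a, the receptor Dectin-1 of macrophages and neutrophils for fungal glucans, read 1361, 1316 and 1365 in the DNFB-treated ears, against 69.0, 66.1 and 69.8 in the control ears. Within each group the ears lay within a few percent of each other, against a 19.7-fold difference between the groups. Mpeg1, the pore-forming perforin-2 of phagocytes, differed 9.99-fold, and the antiviral interferon-induced genes Rsad2 and Oasl2 by 14.2-fold and at least 27.6-fold. Where every array of a group, or its mean, lay under 16, values below 16 were set to 16 and the difference is given as "at least".

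**Figure D2:**
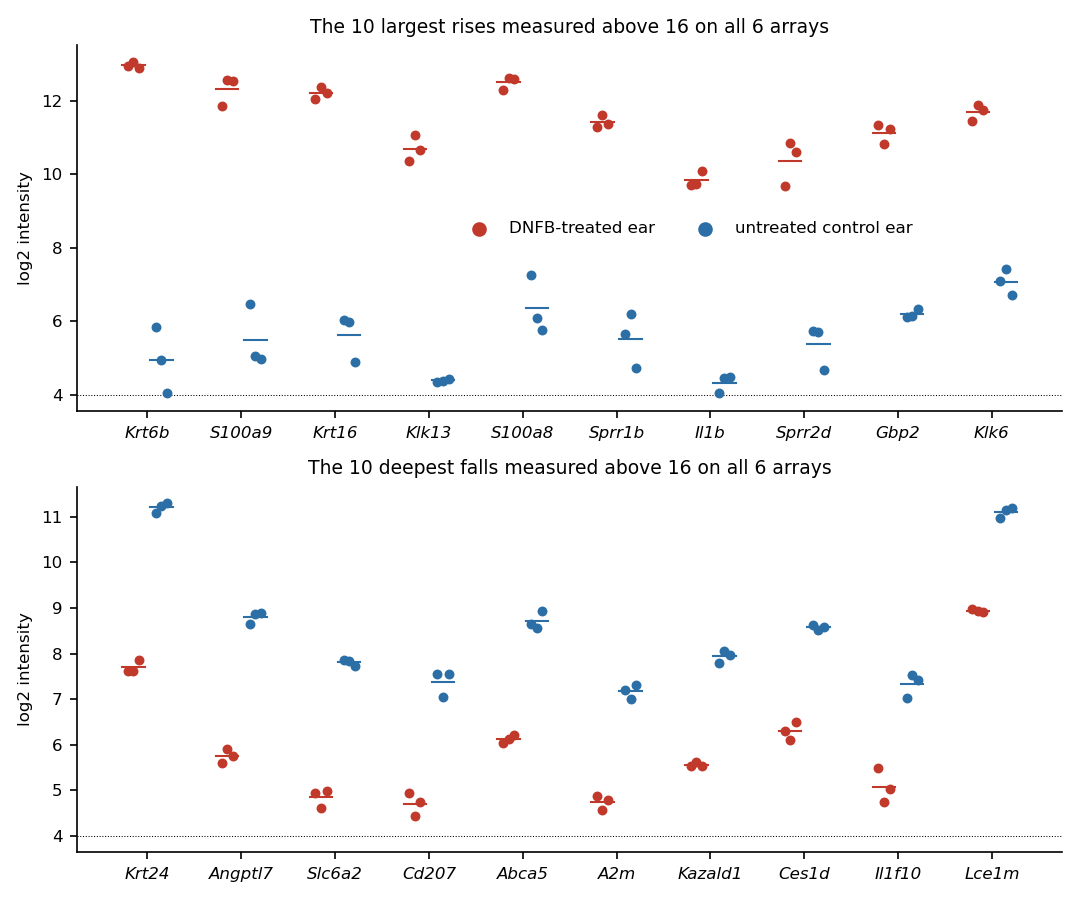
Log2 intensity of the 10 genes with the largest rises (top) and the 10 with the deepest falls (bottom) among called genes at 16 or above on all 6 arrays and without overlap. Points are single ears (red DNFB-treated, blue untreated control, n = 3 each), short lines their means, and the dotted line is an intensity of 16. The spread within a group is widest for the control ears of Krt6b, S100a8, S100a9 and Sprr1b.

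A further 196 genes had all control arrays under 16 and all DNFB arrays at 16 or above, 176 of them called higher. The 5 with the highest bounds were Stfa2l1 (at least 76.6-fold), Saa3 (at least 75.7-fold), Sprr2f (at least 56.9-fold), Cxcl2 (at least 49.9-fold) and Ms4a4b (at least 29.6-fold). Stfa2l1 is a stefin, an inhibitor of cysteine proteases, Saa3 an acute phase protein, Cxcl2 a neutrophil chemokine and Ms4a4b a membrane protein of T cells. Ms4a4b read 544, 448 and 435 in the DNFB-treated ears, against 9.23, 1.45 and 15.7 in the control ears, while Cd3e, a subunit of the T cell receptor complex, read 46.1, 38.7 and 39.8 in the DNFB-treated ears, against 35.6, 42.7 and 40.2 in the control ears. The groups overlapped for Cd3e, while those of Ms4a4b lay apart by the choice of these genes. Krt6a and Krt6b, the Sprr2 genes and the stefins are families of near-identical genes, so the member named is uncertain.

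The falls were shallower, and those of genes at 16 or above on all 6 arrays were chosen by the same rule as the rises. Krt24, a keratin of the differentiated epidermis, read 197, 195 and 233 in the DNFB-treated ears, against 2171, 2427 and 2527 in the control ears, an 11.4-fold difference (-3.51 ± 0.26, adjusted p = 8.8e-06). Abca5, a lipid transporter of the ABC family, fell 6.01-fold and A2m, the protease inhibitor alpha-2-macroglobulin, 5.41-fold. Cd207, which encodes langerin of Langerhans cells, read 30.9, 21.5 and 26.7 in the DNFB-treated ears, against 189, 132 and 188 in the control ears (-2.68 ± 0.34, adjusted p = 2.3e-04). Kazald1, a secreted protein with a Kazal-type domain, read 46.3, 48.9 and 46.5 in the DNFB-treated ears, against 223, 268 and 252 in the control ears. Il1f10, which encodes the interleukin 1 family member IL-38, fell 4.76-fold at 44.6, 26.8 and 32.5 in the DNFB-treated ears, against 130.1, 186 and 172 in the control ears. It thus moved opposite to Il1b (-2.25 ± 0.24, adjusted p = 7.1e-05). The cornified envelope gene Lce1m read 503, 492 and 481 in the DNFB-treated ears, against 2004, 2283 and 2343 in the control ears, opposite to the Sprr genes of the same structure. In the 117 genes with all DNFB arrays under 16 and all control arrays at 16 or above, of which 83 were called lower, the deepest bounds were those of Lypd2 (at least 4.30-fold), the glutathione transferase Gsta3 (at least 3.76-fold), Mucl1 (at least 3.15-fold), the neural adhesion gene Lsamp (at least 3.33-fold) and the phosphatase Dusp8 (at least 2.73-fold). The call of Lypd2 was lost with fluidics run as a fixed block and within run 1.

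Receptors that sense microbes and damage were mostly higher. Of 23 genes of that list tested, 17 rose and 1 fell (73.9% and 4.35%, against 19.0% and 24.0% of all genes). Their median was 1.54 (1.27 with values below 16 set to 16). The rises covered several receptor classes. Zbp1, a sensor of Z-form nucleic acids that can start necroptosis, read 377, 206 and 346 in the DNFB-treated ears, against 18.6, 9.83 and 4.57 in the control ears (at least 17.8-fold). The C-type lectin receptor Clec4d read 403, 425 and 548 in the DNFB-treated ears, against 23.1, 32.6 and 23.8 in the control ears (4.12 ± 0.35, adjusted p = 2.1e-05). Nod1, a cytosolic sensor of bacterial cell wall, read 189, 179 and 211 in the DNFB-treated ears, against 188, 221 and 217 in the control ears and overlapped (-0.11 ± 0.10), and Tlr4, the receptor for bacterial lipopolysaccharide, differed by 0.54 ± 0.21 with adjusted p = 0.069, 0.0313 with arrays centred and 0.00486 without DNFB-treated ear 2. The 1 fall was Tlr5, the flagellin receptor (-0.56 ± 0.12, adjusted p = 0.0039); like the few genes that went against their list below, it was picked out after its values were seen.

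Downstream of these receptors, the transcription factor NF-kappaB is held in the cytoplasm by inhibitors and induces several of its own subunits and inhibitors. Of 17 such genes, 11 rose and 1 fell (64.7% and 5.88%, against 19.0% and 24.0% of all genes, median 0.58). Bcl3, a nuclear member of the inhibitor family, read 106, 124 and 138 in the DNFB-treated ears, against 15.94, 10.83 and 15.01 in the control ears, at least 7.62-fold. Traf1, an adaptor of tumour necrosis factor receptors, and Nfkbie, an inhibitor, rose 3.27-fold and 3.08-fold. Nfkbia, an inhibitor that NF-kappaB induces, read 2319.8, 2287 and 2735 in the DNFB-treated ears, against 2329.8, 2441 and 2532 in the control ears. The subunit Rela read 370.4, 411 and 394 in the DNFB-treated ears, against 364, 451 and 380.2 in the control ears. Both overlapped, with differences of 0.00 ± 0.13 and -0.02 ± 0.12. With run as a fixed block 5 of the list rose and 0 fell.

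Cytokine signals run through JAK kinases, STAT and IRF transcription factors and SOCS inhibitors. Of 27 such genes, 15 rose and 1 fell (55.6% and 3.70%, against 19.0% and 24.0% of all genes, median 0.58). With run as a fixed block 13 rose and 1 fell. Irf7, the amplifier of type I interferon, read 484, 324 and 468 in the DNFB-treated ears, against 53.2, 63.0 and 39.4 in the control ears (3.04 ± 0.20, adjusted p = 4.3e-06). Irf8, a factor of monocytes and dendritic cells, read 281, 209 and 257 in the DNFB-treated ears, against 36.4, 47.4 and 30.4 in the control ears. Socs3, the feedback inhibitor of interleukin 6 receptor signalling, read 439.7, 549 and 552 in the DNFB-treated ears, against 117, 122 and 154 in the control ears (1.97 ± 0.23, adjusted p = 1.3e-04). In all 3 the lowest treated ear was above the highest control ear, and for both IRF genes ear 2 was the lowest treated one. Stat4, which carries interleukin 12 signals in T cells, was far below 16 in every control ear, at 27.3, 33.2 and 45.5 in the DNFB-treated ears, against 0.418, 0.849 and 1.16 in the control ears, at least 2.16-fold higher. The kinase Jak1 read 1166, 1239 and 1118 in the DNFB-treated ears, against 1213, 1233 and 1210.0 in the control ears. Stat6, which carries interleukin 4 signals, read 372, 379 and 369 in the DNFB-treated ears, against 318, 355 and 329 in the control ears. The Jak1 groups overlapped and the Stat6 groups did not, but neither difference passed (-0.05 ± 0.08 and 0.16 ± 0.09).

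Promoter windows of 250 bases before to 50 after the start of transcription (RefSeq, GRCm38.p6) were searched on both strands for GAS (TTCNNNGAA, a site type of STAT dimers), an ISRE core (GAAANNGAA, the repeat read by IRF and STAT complexes) and a kappaB core (GGANNTTCC). Windows were checked gene by gene for Gbp2, Stat4, Irf8, Socs3 and the genes listed below as holding none of the motifs. These genes come from the largest rises and from the STAT, IRF and SOCS genes named here that rose. Windows of the interferon-induced genes Rsad2 and Oasl2 were not checked in this way. The windows found to hold a match are shown, with the matches in capitals. The windows are Gbp2 (an interferon-induced GTPase) at chr3:142620413-142620712 on the plus strand, Stat4 at chr1:52007990-52008289 on the plus strand, Irf8 at chr8:120736108-120736407 on the plus strand and Socs3 at chr11:117969317-117969616 on the minus strand.
Gbp2: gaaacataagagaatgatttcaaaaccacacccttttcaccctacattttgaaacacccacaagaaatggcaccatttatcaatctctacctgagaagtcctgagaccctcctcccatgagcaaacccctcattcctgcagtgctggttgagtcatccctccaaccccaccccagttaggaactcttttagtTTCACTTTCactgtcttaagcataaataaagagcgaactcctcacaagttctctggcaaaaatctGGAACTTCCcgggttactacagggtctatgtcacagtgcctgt
Stat4: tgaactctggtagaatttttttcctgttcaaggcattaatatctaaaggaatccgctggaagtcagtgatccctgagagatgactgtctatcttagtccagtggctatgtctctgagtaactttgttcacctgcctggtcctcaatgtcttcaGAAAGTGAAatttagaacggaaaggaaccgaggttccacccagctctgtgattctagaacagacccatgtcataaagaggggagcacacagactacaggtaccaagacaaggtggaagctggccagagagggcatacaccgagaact
Irf8: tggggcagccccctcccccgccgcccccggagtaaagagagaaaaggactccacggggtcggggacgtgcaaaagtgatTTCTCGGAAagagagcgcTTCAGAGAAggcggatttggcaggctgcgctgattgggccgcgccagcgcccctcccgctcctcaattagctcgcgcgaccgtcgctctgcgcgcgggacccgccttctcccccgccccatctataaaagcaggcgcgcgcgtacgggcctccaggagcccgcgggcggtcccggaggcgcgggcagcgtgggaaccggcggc
Socs3: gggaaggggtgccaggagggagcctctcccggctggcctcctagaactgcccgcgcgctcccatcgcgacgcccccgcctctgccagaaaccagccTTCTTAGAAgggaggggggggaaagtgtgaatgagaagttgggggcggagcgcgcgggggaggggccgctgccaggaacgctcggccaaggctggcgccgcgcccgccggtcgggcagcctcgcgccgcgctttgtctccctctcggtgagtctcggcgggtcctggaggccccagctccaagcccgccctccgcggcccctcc
In Gbp2 the ISRE core lay 58 to 50 bases before the start and the kappaB core at bases 8 to 16 after it. Stat4 held an ISRE core 97 to 89 bases before the start of this window, which is the second of 2 listed for the gene; the other had no match. Irf8 held 2 GAS matches, 171 to 163 and 153 to 145 bases before the start of the first of its 2 windows, and the other had no match. Socs3 held 1, 154 to 146 bases before it. None overlapped another. Gbp2 read 2565, 1819.5 and 2386 in the DNFB-treated ears, against 68.8, 70.4 and 80.8 in the control ears, with ear 2 the lowest treated one. The letters alone are common: a GAS match was in 6.75%, an ISRE core in 7.27% and a kappaB core in 4.54% of the 13715 windows of tested genes, and in 8.3%, 8.56% and 4.26% of all 32851 windows. In the 332 windows of genes called at least 4-fold higher the shares were 11.1%, 20.2% and 9.04%, and in the 74 windows of genes called at least 4-fold lower 4.05%, 9.46% and 2.7%. These shares are a description, and a match is not evidence of binding. The windows of Klk13, Klk6, S100a8, S100a9, Il1b, Sprr1b, Sprr2d and Irf7 held none of the 3 motifs.

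Of the receptors and adhesion molecules by which leukocytes find and enter tissue, more rose than fell. Of 18 chemokine receptors, 9 rose and 2 fell (50% and 11.1%, against 19.0% and 24.0% of all genes). Their median was 1.16 (0.76 at the floor of 16), and 8 rose and 0 fell with run as a fixed block. Ccr2, which draws monocytes out of blood, read 1318, 997 and 1039.8 in the DNFB-treated ears, against 128, 105 and 144 in the control ears (3.16 ± 0.17, adjusted p = 2.1e-06), Ccr1, a receptor of neutrophils and monocytes, rose at least 22.3-fold and Cxcr4, the receptor for Cxcl12, 5.90-fold. The 2 falls were Ackr2 (-0.84 ± 0.21) and Ackr4 (-0.55 ± 0.13), atypical receptors that scavenge chemokines, and neither fall was called within run 1 or with run as a fixed block. Ackr1, which carries chemokines across venules, read 166, 115 and 182 in the DNFB-treated ears, against 222, 200.4 and 188 in the control ears and did not pass (-0.42 ± 0.16, adjusted p = 0.064; 0.0302 without DNFB-treated ear 3), and Ackr3, a scavenger of Cxcl12, differed by -0.18 ± 0.18.

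Of 18 adhesion genes, 12 rose and 2 fell (66.7% and 11.1%, against 19.0% and 24.0% of all genes). Their median was 0.96, and 9 rose and 1 fell with run as a fixed block. The beta-2 integrin chain Itgb2 read 845, 625 and 778 in the DNFB-treated ears, against 146, 136 and 127 in the control ears. Its partners Itgam, of myeloid cells, and Itgal, of lymphocytes and myeloid cells, rose at least 6.05-fold and 6.20-fold, and the selectin ligand Selplg 3.85-fold. For Itgal 1 of 2 probe sets was called higher. Itgb1, a chain made by most cells, read 655, 516 and 526 in the DNFB-treated ears, against 509.7, 497 and 544 in the control ears and did not pass (0.12 ± 0.11). The 2 falls were the junctional molecules Jam3 (-0.84 ± 0.24) and Cd99l2 (-0.50 ± 0.13). The leukocyte markers Ptprc and Laptm5 rose by 1.98 ± 0.18 and 1.73 ± 0.17, and their part in the rises of Itgb2 (2.45 ± 0.17), Itgal (2.63 ± 0.22), Itgam and Selplg (1.94 ± 0.15) was not tested.

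Phagocyte killing genes followed. Of 21 oxidase, nitric oxide and lysosomal genes, 17 rose and 1 fell (80.95% and 4.76%, against 19.0% and 24.0% of all genes). Their median was 0.80, and 15 rose and 1 fell with run as a fixed block. Cybb, the catalytic membrane subunit of the NADPH oxidase, read 844, 563 and 662 in the DNFB-treated ears, against 132, 123 and 106 in the control ears. Its partner Cyba read 1219.5, 922 and 1192 in the DNFB-treated ears, against 310.4, 306 and 316 in the control ears. Neither overlapped. Cybb rose 5.68-fold, Cyba 3.55-fold and the cytosolic subunit Ncf4 3.23-fold, so all subunits named rose but to unequal degrees. Slc11a1, a metal transporter of the phagosome, rose 3.89-fold. The lysosomal membrane protein Lamp1 read 1678, 1853 and 1848 in the DNFB-treated ears, against 1816, 1862 and 2004 in the control ears and overlapped (-0.08 ± 0.09). The 1 fall was Ctsk, the collagen-degrading cathepsin K (-1.06 ± 0.10, adjusted p = 4.4e-05).

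Of 16 genes of inflammasomes and lytic cell death, 13 rose and none fell (81.25% and 0%, against 19.0% and 24.0% of all genes). Their median was 1.27, and 10 rose and 0 fell with run as a fixed block. Casp4, the caspase that senses cytosolic lipopolysaccharide, read 192, 171 and 167 in the DNFB-treated ears, against 21.5, 22.1 and 22.6 in the control ears. The ears lay close together within each group and the groups were far apart (3.00 ± 0.18, adjusted p = 3.2e-06). Mlkl, the protein that breaks the membrane in necroptosis, rose at least 8.37-fold and its kinase Ripk3 4.14-fold. Il18bp, the soluble decoy that binds interleukin 18, rose at least 6.27-fold. Ninj1, the protein that ruptures the membrane of dying cells, and Gsdme, a gasdermin, differed by 0.22 ± 0.12 and 0.24 ± 0.13 and did not pass.

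Lipid mediator genes moved both ways. Of 20 genes for prostaglandin and leukotriene enzymes and receptors, 8 rose and 6 fell (40% and 30%, against 19.0% and 24.0% of all genes, median 0.24). The counts were 4 and 3 with run as a fixed block. Alox5ap, the protein that presents arachidonic acid to 5-lipoxygenase, read 1279, 989.5 and 1240.2 in the DNFB-treated ears, against 405, 445 and 394 in the control ears (1.49 ± 0.12, adjusted p = 1.3e-05). The 12-lipoxygenase Alox12 read 38.3, 28.8 and 25.6 in the DNFB-treated ears, against 109, 112 and 135 in the control ears (-1.95 ± 0.21, adjusted p = 7.9e-05). These genes thus stood apart in opposite directions, while Pla2g4a, the phospholipase that frees arachidonic acid, read 306, 324 and 301 in the DNFB-treated ears, against 295, 297 and 301 in the control ears and overlapped.

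Of 15 genes of immune checkpoints and regulatory T cells, 9 rose and none fell (60% and 0%, against 19.0% and 24.0% of all genes). Their median was 1.20, and 0.83 at the floor of 16. Cd274, the ligand PD-L1 that restrains T cells, read 171, 163 and 187 in the DNFB-treated ears, against 38.0, 38.6 and 46.2 in the control ears (2.09 ± 0.15, adjusted p = 6.8e-06). Icos, a costimulatory receptor of activated T cells, read 66.0, 62.9 and 66.4 in the DNFB-treated ears, against 11.6, 11.1 and 14.5 in the control ears, at least 4.07-fold. The treated ears lay close together for Icos. Tnfrsf4, the costimulatory receptor OX40, differed by 0.42 ± 0.17 (adjusted p = 0.073; 0.0227 without control ear 3, 0.0316 without DNFB-treated ear 2) and Icosl, the ligand of Icos, by 0.07 ± 0.18.

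**Figure D3:**
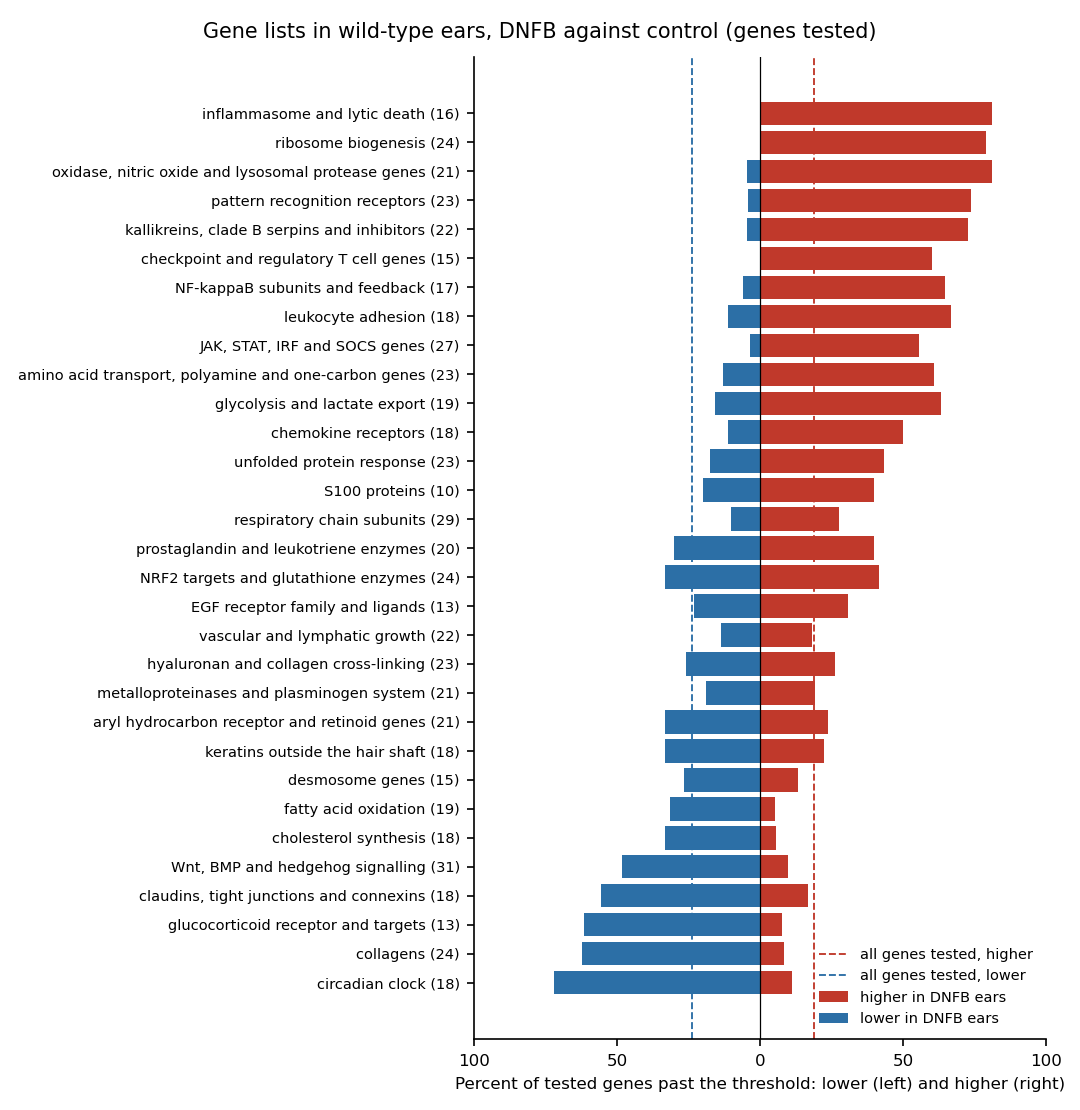
Percent of the tested members of 31 gene lists that were higher (red, to the right) or lower (blue, to the left) in DNFB-treated than control ears, with the number tested in brackets. Dashed lines mark the same shares of all 13383 genes tested, 19.0% and 24.0%. Inflammasome, ribosome biogenesis and phagocyte killing genes reach farthest to the right, and clock genes and collagens farthest to the left.

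Keratins other than Krt6b and Krt24, which are described above and not counted here, changed about as often as all genes. Of 18 such keratins outside the hair shaft, 4 rose (22.2%, against 19.0% of all genes) and 6 fell (33.3%, against 24.0%). Their median was -0.29. With arrays centred 6 rose and 4 fell, and with run as a fixed block 4 and 3. Krt17, which like Krt6 and Krt16 appears in wounded epidermis, read 2338, 3055 and 3067 in the DNFB-treated ears, against 436, 500.0 and 452 in the control ears (2.60 ± 0.13, adjusted p = 1.4e-06). Krt15, a keratin of basal and follicle stem cells, read 1166, 1117 and 964 in the DNFB-treated ears, against 3855, 4351 and 4231 in the control ears, no treated ear reaching the lowest control ear. Krt10, the main keratin of the spinous layer, read 9209, 8662 and 7705 in the DNFB-treated ears, against 9193, 9863 and 10493 in the control ears and overlapped (-0.21 ± 0.10). Krt14, that of the basal layer, read 7489.8, 8304 and 7427 in the DNFB-treated ears, against 5579, 6206 and 6834 in the control ears, without overlap but with a p just over the threshold (0.32 ± 0.12, adjusted p = 0.051; 0.0151 with arrays centred, 0.0414 without control ear 3). Krt6b, Krt6a, Krt14 and Krt10 lie near the top of the range, the highest intensity of a control array being 9193 to 10531.5.

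Genes of desmosomes, which bolt keratinocytes together, changed about as often as all genes. Of 15 tested, 2 rose and 4 fell (13.3% and 26.7%, against 19.0% and 24.0% of all genes, median -0.16). With mouse as a block 1 rose and 3 fell. Dsc2, a desmocollin, read 129, 161 and 208 in the DNFB-treated ears, against 31.3, 33.7 and 34.1 in the control ears (2.30 ± 0.26, adjusted p = 1.2e-04). Ppl, the linker periplakin of the cornified envelope, fell 1.93-fold at 703, 816 and 631 in the DNFB-treated ears, against 1322, 1457 and 1344 in the control ears. Dsp, the main desmosome plaque protein, read 4512, 4699 and 4106 in the DNFB-treated ears, against 4906, 5266 and 5137 in the control ears without overlap, a difference that did not pass (-0.20 ± 0.10, adjusted p = 0.12).

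Most called claudin and tight junction genes were lower, while connexins, which form channels between cells, went both ways. Of 18 claudins, tight junction genes and connexins, 3 rose and 10 fell (16.7% and 55.6%, against 19.0% and 24.0% of all genes). Their median was -0.65, and 3 rose and 5 fell with run as a fixed block. The 3 that rose were all connexins, and a further connexin, Gjb5, fell (-0.87 ± 0.16). Gjb2 (connexin 26) read 1167, 1927 and 1528 in the DNFB-treated ears, against 114, 121 and 92.8 in the control ears. Gjb6 (connexin 30) read 259.8, 432 and 314 in the DNFB-treated ears, against 25.3, 30.1 and 22.6 in the control ears. Gjb2 rose 13.9-fold, Gjb6 12.7-fold and Gja1 (connexin 43) 2.65-fold, and for Gjb2 and Gjb6 ear 1 was the lowest and ear 2 the highest treated ear. Cgn, the cytoplasmic junction protein cingulin, read 77.6, 91.5 and 69.7 in the DNFB-treated ears, against 235, 251 and 216 in the control ears. The claudin Cldn23 read 82.7, 127 and 122 in the DNFB-treated ears, against 259, 383 and 289 in the control ears. Neither overlapped (-1.56 ± 0.13, adjusted p = 2.1e-05, and -1.50 ± 0.27, adjusted p = 0.002). Cldn1, the claudin on which the epidermal water barrier depends, read 638, 721 and 661 in the DNFB-treated ears, against 711, 859 and 800.0 in the control ears and overlapped (-0.23 ± 0.13), as did the scaffold Tjp1 (-0.03 ± 0.10).

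Proteases of the outer epidermis and their inhibitors mostly rose. Of 22 kallikreins, clade B serpins and other inhibitors, 16 rose and 1 fell (72.7% and 4.5%, against 19.0% and 24.0% of all genes). Their median was 1.34 (1.18 at the floor of 16), and 15 rose and 1 fell with run as a fixed block. Klk13, a kallikrein-related serine protease, read 1312, 2159 and 1599.5 in the DNFB-treated ears, against 20.5, 20.9 and 21.6 in the control ears, the control ears close together (6.30 ± 0.23, adjusted p = 2.7e-07). Its relative Klk6 read 2777, 3789 and 3446 in the DNFB-treated ears, against 137, 171 and 105 in the control ears (4.62 ± 0.19, adjusted p = 4.4e-07). The antiproteases Slpi and Wfdc12 rose 15.4-fold and 9.46-fold, and in Slpi ear 3 was the highest treated ear, at 538, 763 and 908 in the DNFB-treated ears, against 42.1, 58.9 and 41.1 in the control ears. Spink5, the inhibitor LEKTI that restrains the kallikreins of shedding, read 1429.9, 1697 and 1399 in the DNFB-treated ears, against 1267, 1449 and 1456 in the control ears. The maspin gene Serpinb5 read 2239, 2536 and 1994 in the DNFB-treated ears, against 2277, 2505 and 2657 in the control ears. Both overlapped (0.11 ± 0.11 and -0.14 ± 0.12), although 3 of 4 Serpinb5 probe sets were called lower. The 1 fall was the serpin Serpinb7 (-1.47 ± 0.19, adjusted p = 2.4e-04).

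**Figure D4:**
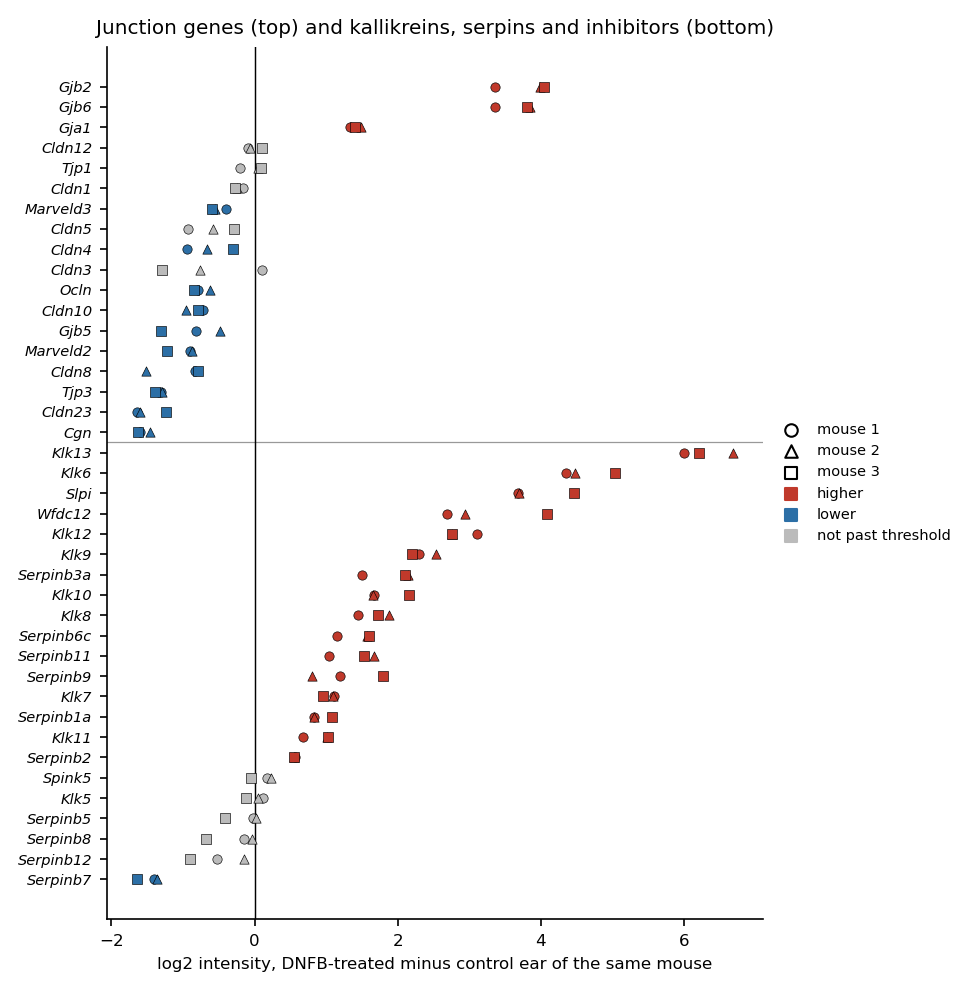
Log2 intensity of the DNFB-treated minus the control ear of the same mouse for tight junction and connexin genes (above the line) and for kallikreins, serpins and inhibitors (below it), with 1 symbol per mouse (n = 3). Red genes were higher, blue genes lower and grey genes not past the threshold. Gjb2, Gjb6 and Gja1 stand to the right of 0 in all mice and the called claudin and tight junction genes, with Gjb5, to the left.

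Among 10 S100 proteins not counting S100a9, 4 rose and 2 fell (40% and 20%, against 19.0% and 24.0% of all genes, median 0.21). The counts were 1 and 0 with run as a fixed block. The calls of S100a8 (6.13 ± 0.83 in the fit of all arrays) and of S100a9 (6.81 ± 0.68) were kept within run 1. S100a8 read 5014, 6247 and 6200.0 in the DNFB-treated ears, against 153, 67.6 and 54.2 in the control ears. The keratinocyte members S100a14 and S100a13 overlapped (0.05 ± 0.09 and -0.06 ± 0.09). Of 13 genes of the EGF receptor family, 4 rose and 3 fell (30.8% and 23.1%, against 19.0% and 24.0% of all genes, median -0.20). The counts were 2 and 2 with run as a fixed block. The ligand Epgn (epigen) read 257, 271 and 522 in the DNFB-treated ears, against 14.1, 8.06 and 16.5 in the control ears, at least 20.5-fold, and the ligand Hbegf 289, 359 and 466 in the DNFB-treated ears, against 108, 111 and 92.3 in the control ears. For Epgn and Hbegf ear 3 was the highest treated ear. The receptor Egfr read 182, 188 and 169.9 in the DNFB-treated ears, against 292, 276 and 285 in the control ears (-0.66 ± 0.11, adjusted p = 0.0012), a call that the median over its 6 probe sets lost, and Erbb3 overlapped (-0.21 ± 0.13; -0.35 and called without DNFB-treated ear 2).

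Most collagen genes were lower, in whole ears that do not tell dermis from cartilage or other tissue. Of 24 tested, 2 rose and 15 fell (8.33% and 62.5%, against 19.0% and 24.0% of all genes, median -0.55). With run as a fixed block 2 rose and 11 fell, and with arrays centred 2 and 12. The deepest falls were in chains of basement membranes and of the short-chain network collagens. Col4a6 read 27.4, 24.9 and 18.2 in the DNFB-treated ears, against 91.9, 96.8 and 96.8 in the control ears. Its partner Col4a5 read 62.4, 50.7 and 51.5 in the DNFB-treated ears, against 159, 137 and 147 in the control ears. Col8a2 fell 3.14-fold and Col8a1 2.28-fold, at 1145, 916 and 984 in the DNFB-treated ears, against 2384, 1991 and 2567 in the control ears. The abundant fibrillar chain Col3a1 read 5555, 5277 and 5482 in the DNFB-treated ears, against 5367, 4938 and 6206 in the control ears and overlapped (-0.01 ± 0.10), as did Col5a2 (0.11 ± 0.11), although 1 of 2 Col3a1 probe sets was called higher. The fibroblast markers Dcn and Pdgfra differed by -0.52 ± 0.09 and 0.16 ± 0.14. With Col1a1, itself on the collagen list, they summed to 6130.0 to 6501 in DNFB-treated and 8293 to 9571 in control ears. The cartilage markers Col2a1 and Acan summed to 299 to 364 and 732 to 1040.4. Acan fell (-1.64 ± 0.20), while Col2a1 overlapped and did not pass (-0.48 ± 0.24, adjusted p = 0.14). The part of the fibroblast and cartilage markers in the collagen falls was not tested.

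Genes that cut or cross-link matrix were called about as often as all genes. Of 21 genes of metalloproteinases and the plasminogen system, 4 rose and 4 fell (19.05% each, against 19.0% and 24.0% of all genes). Their median was 0.15, and 1 rose and 4 fell with run as a fixed block. Plaur, the urokinase receptor, read 117, 104 and 149 in the DNFB-treated ears, against 37.9, 29.4 and 31.7 in the control ears (1.89 ± 0.25, adjusted p = 2.9e-04). Timp4, a metalloproteinase inhibitor, read 59.1, 38.7 and 91.4 in the DNFB-treated ears, against 196, 253 and 279 in the control ears (-2.02 ± 0.35, adjusted p = 0.0016). The collagenase gene Mmp13 was called higher at 54.9, 68.3 and 75.6 in the DNFB-treated ears, against 6.89, 3.74 and 1.70 in the control ears. Mmp8, the collagenase of neutrophils, was called higher at 29.6, 18.9 and 26.1 in the DNFB-treated ears, against 10.4, 6.44 and 0.587 in the control ears. Both calls were lost with run as a fixed block and within run 1, and that of Mmp8 also with mouse as a block. That of Mmp13 was lost without control ear 2 or 3 (adjusted p = 0.0538 and 0.0768) and without DNFB-treated ear 2 or 3 (0.0567 and 0.06). That of Mmp8 was lost without DNFB-treated ear 1, 2 or 3 (adjusted p = 0.111, 0.0803 and 0.104) and without control ear 2 or 3 (0.0533 and 0.13, at 1.58 in the last). Mmp14, the membrane-bound collagenase, overlapped (0.07 ± 0.11), although 1 of its 3 probe sets was called higher.

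Of 23 genes of hyaluronan and collagen cross-linking, 6 rose and 6 fell (26.1% each, against 19.0% and 24.0% of all genes). Their median was 0.17, and 5 rose and 3 fell with run as a fixed block. Has3, a hyaluronan synthase, read 54.6, 104 and 91.6 in the DNFB-treated ears, against 0.521, 6.21 and 5.07 in the control ears, at least 5.02-fold. Hmmr, a hyaluronan receptor also of dividing cells, rose 4.21-fold and Tnc, the wound matrix protein tenascin C, 3.31-fold. The cross-linking enzyme Loxl4 read 97.5, 60.6 and 77.3 in the DNFB-treated ears, against 293, 325 and 264 in the control ears, while its relatives Lox and Loxl1 overlapped (0.06 ± 0.09 and 0.17 ± 0.15). Of 22 genes of vessel growth, 4 rose and 3 fell (18.2% and 13.6%, against 19.0% and 24.0% of all genes). Their median was 0.05, and 1 rose and 1 fell with run as a fixed block. The oxygen-sensitive factor Hif1a read 1587, 1604 and 1747 in the DNFB-treated ears, against 929, 841 and 918 in the control ears (0.88 ± 0.11, adjusted p = 2.0e-04), and the growth factor Pdgfb 77.0, 84.8 and 80.7 in the DNFB-treated ears, against 167, 145 and 166 in the control ears (-0.98 ± 0.14). The endothelial markers Pecam1, Cdh5 and Tek differed by 0.26 ± 0.12, 0.37 ± 0.23 and -0.22 ± 0.15 and did not pass.

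Developmental signalling genes fell more often than they rose. Of 31 genes of Wnt, BMP and hedgehog signalling, 3 rose and 15 fell (9.68% and 48.4%, against 19.0% and 24.0% of all genes). Their median was -0.70 (-0.49 at the floor of 16), and 1 rose and 10 fell with run as a fixed block. Wif1, a secreted Wnt antagonist, read 792, 568 and 582 in the DNFB-treated ears, against 1899, 1966 and 1950.3 in the control ears. Frzb, another, read 248, 198 and 225 in the DNFB-treated ears, against 578, 647 and 817 in the control ears. Each fell 3.03-fold, with no overlap in either. Id1 and Id2, targets of BMP signals, differed by -0.26 ± 0.12 and 0.29 ± 0.13 and did not pass. Chrdl1, an antagonist of BMP, was called lower (-1.13 ± 0.14) but not by the median over its probe sets.

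Most genes of sugar breakdown were higher. Of 19 genes of glycolysis and lactate export, 12 rose and 3 fell (63.2% and 15.8%, against 19.0% and 24.0% of all genes). Their median was 0.97, and 12 rose and 3 fell with run as a fixed block. The glucose transporter Slc2a3 read 119, 136 and 121 in the DNFB-treated ears, against 37.1, 35.7 and 43.3 in the control ears. The leukocyte hexokinase Hk3 read 97.4, 66.1 and 93.1 in the DNFB-treated ears, against 26.9, 30.8 and 23.2 in the control ears. The lactate exporter Slc16a3 read 68.6, 50.0 and 66.5 in the DNFB-treated ears, against 14.5, 21.7 and 23.3 in the control ears. They rose 3.24-fold, 3.15-fold and 3.14-fold without overlap, and Pgam1, a late enzyme of the pathway, 2.85-fold at 1107, 1318 and 1151 in the DNFB-treated ears, against 429, 442 and 384 in the control ears. Aldoa, the main aldolase, read 2729.8, 3331 and 3252 in the DNFB-treated ears, against 2543, 2725 and 3118 in the control ears and overlapped (0.15 ± 0.12). The 3 falls were Aldoc (-0.64 ± 0.15), the muscle phosphofructokinase Pfkm (-0.80 ± 0.17) and Ldhb (-1.23 ± 0.13), the lactate dehydrogenase chain of oxidative tissue. The skeletal muscle markers Ckm and Myh4 fell by 0.77 and 1.13 in the same ears.

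Of 29 respiratory chain genes tested, 8 rose (27.6%, against 19.0% of all genes) and 3 fell (10.3%, against 24.0%). Their median was 0.18, but these counts follow the scaling. They were 14 and 1 with arrays centred and 4 and 3 with quantile normalization, and 2 and 1 with run as a fixed block. Cox5a, a subunit made in all tissues, read 2938, 2817 and 3079 in the DNFB-treated ears, against 1792, 1739 and 1889.6 in the control ears (0.70 ± 0.10, adjusted p = 4.8e-04). The 3 falls, Cox6a2, Cox8b and Cox7a1, are the heart and skeletal muscle forms of their subunits. The calls of Cox8b and Cox7a1 were lost without DNFB-treated ear 1 (-0.73 and -0.75) or control ear 3 (-0.56 and -0.65), and that of Cox8b also without DNFB-treated ear 2 (-0.82). Cox6a2 read 249, 255 and 317 in the DNFB-treated ears, against 502, 516 and 648 in the control ears (-1.02 ± 0.19, adjusted p = 0.0022). The skeletal muscle markers summed to 2952 to 5033 in DNFB-treated and 5320.1 to 7753 in control ears, and their part in these falls was not tested.

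Of 19 genes of fatty acid oxidation, 1 rose and 6 fell (5.26% and 31.6%, against 19.0% and 24.0% of all genes, median -0.20). Ppara, the nuclear receptor that drives them, read 36.4, 25.9 and 31.9 in the DNFB-treated ears, against 94.6, 79.3 and 89.4 in the control ears (-1.49 ± 0.13, adjusted p = 2.6e-05). The acyl-CoA dehydrogenases went apart. Acadl, for long chains, rose and read 870.0, 1052 and 959.8 in the DNFB-treated ears, against 486, 496 and 499 in the control ears. Acadm, for medium chains, fell and read 600.3, 586 and 592 in the DNFB-treated ears, against 979, 1088 and 1065 in the control ears. Hadh and Hadhb overlapped (-0.02 ± 0.12 and 0.18 ± 0.10). The adipocyte markers Adipoq and Fabp4 both fell and summed to 2265 to 3811 in DNFB-treated and 4059 to 5388 in control ears, and their part was not tested. The Fabp4 groups overlapped (-0.57 ± 0.20, adjusted p = 0.043), and 1 of its 4 probe sets was called lower. Of 18 genes of cholesterol synthesis, 1 rose and 6 fell (5.56% and 33.3%, against 19.0% and 24.0% of all genes, median -0.23). The counts were 0 and 3 both with run as a fixed block and with mouse as a block. Dhcr7, the last enzyme of the pathway, read 396, 404 and 334 in the DNFB-treated ears, against 594, 734 and 600.2 in the control ears (-0.76 ± 0.14, adjusted p = 0.0017), and Hmgcs1, an early one, was lower by all 5 probe sets (-0.55 ± 0.11). Sqle, the squalene epoxidase, differed by 0.18 ± 0.12 and Fdps by -0.14 ± 0.12, without passing.

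Most genes that supply amino acids, polyamines and ribosomes were higher. Of 23 genes of amino acid transport, polyamines and one-carbon metabolism, 14 rose and 3 fell (median 0.44), and 8 and 3 within run 1. Slc7a5, the LAT1 transporter of large neutral amino acids, read 165, 267 and 253 in the DNFB-treated ears, against 58.3, 68.8 and 74.5 in the control ears (1.74 ± 0.20, adjusted p = 1.1e-04). Smox, the spermine oxidase, rose 3.06-fold. Slc3a2, the partner chain of Slc7a5 at the membrane, read 526, 546 and 575 in the DNFB-treated ears, against 533, 535 and 564 in the control ears and overlapped (0.01 ± 0.09). Of 24 genes of ribosome biogenesis, 19 rose and none fell (79.2% and 0%, against 19.0% and 24.0% of all genes, median 0.54). With run as a fixed block 8 rose and 0 fell, and the median was 0.51. The nucleolar protein gene Nop56 read 352, 307 and 332 in the DNFB-treated ears, against 146, 163 and 169.6 in the control ears. Fbl, which encodes fibrillarin, read 937, 1079 and 1106 in the DNFB-treated ears, against 526, 595 and 649 in the control ears. These were rises of 2.07-fold and 1.77-fold without overlap. Gar1 and Pes1 did not pass (0.10 ± 0.11 and 0.03 ± 0.14), nor did Myc, the growth factor-induced regulator of these genes (-0.10 ± 0.17).

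Of 23 genes of the unfolded protein response, 10 rose and 4 fell (43.5% and 17.4%, against 19.0% and 24.0% of all genes). Their median was 0.34. With arrays centred 11 rose and none fell, and with mouse as a block 10 and 2. The chaperones of the endoplasmic reticulum led. Hsp90b1 read 1363, 1356 and 1401 in the DNFB-treated ears, against 707, 693 and 698 in the control ears, and Calr, calreticulin, 2508, 2525 and 2558 in the DNFB-treated ears, against 1539, 1528 and 1498 in the control ears. The ears of a group lay close together in each, and the groups were apart (0.97 ± 0.12, adjusted p = 1.8e-04, and 0.73 ± 0.09, adjusted p = 1.6e-04). Xbp1, a transcription factor of the response, read 1893, 1956 and 1919.8 in the DNFB-treated ears, against 2121, 2059 and 2068 in the control ears, without overlap and without passing (-0.11 ± 0.08, adjusted p = 0.27), although 1 of its 4 probe sets was called higher.

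Antioxidant genes went both ways. Of 24 NRF2 targets and glutathione enzymes, 10 rose and 8 fell (41.7% and 33.3%, against 19.0% and 24.0% of all genes, median 0.32). The counts were 4 and 5 with run as a fixed block. Gsta4, the glutathione transferase for the lipid peroxidation product 4-hydroxynonenal, read 928, 1312 and 1206 in the DNFB-treated ears, against 77.2, 76.2 and 63.8 in the control ears (3.98 ± 0.19, adjusted p = 8.4e-07). Gstm1, a mu-class transferase, read 225, 184 and 219.8 in the DNFB-treated ears, against 601, 633 and 573 in the control ears (-1.53 ± 0.11, adjusted p = 7.5e-06), and Gsta3 11.9, 10.8 and 8.63 in the DNFB-treated ears, against 66.3, 67.9 and 48.4 in the control ears. The alpha-class genes Gsta4 and Gsta3 thus stood apart in opposite directions. Gpx2, a glutathione peroxidase of epithelia, rose at least 3.41-fold. Gstp1, the pi-class transferase, and the metallothionein Mt1 differed by 0.11 ± 0.11 and 0.34 ± 0.23 without passing.

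Clock genes were lower. The circadian clock is a feedback loop in which Clock and Bmal1 drive the Per and Cry repressors, the Rev-erb receptors and output factors such as Dbp, Tef and Hlf. Of 18 genes tested, 2 rose and 13 fell (11.1% and 72.2%, against 19.0% and 24.0% of all genes). Their median was -1.02, with per-mouse medians of -1.02, -1.10 and -0.92 (DNFB-treated minus control ear). With run as a fixed block the counts were 1 and 11, and with arrays centred 2 and 13. Per2, a repressor of the loop, read 21.5, 19.7 and 16.1 in the DNFB-treated ears, against 86.2, 89.6 and 72.0 in the control ears. The output factor Hlf read 204, 188 and 168 in the DNFB-treated ears, against 808, 764 and 798 in the control ears. In both, DNFB-treated ear 3 was lowest. Nr1d1, which encodes Rev-erb alpha, read 106, 114 and 104 in the DNFB-treated ears, against 397, 436 and 406 in the control ears. The repressor Cry2 read 63.4, 78.8 and 63.7 in the DNFB-treated ears, against 249.8, 269 and 230.4 in the control ears. In all 4 the treated ears lay far below the control ears with no overlap, and the differences were -2.12 ± 0.23, -2.08 ± 0.17, -1.93 ± 0.11 and -1.87 ± 0.13 (adjusted p = 8.3e-05, 1.3e-05, 2.3e-06 and 5.4e-06). Genes of the positive and the negative limb were lower: Bmal1 (Arntl on the array) fell by 0.73 and Per1 fell by 0.76. The 2 rises were Nfil3 (1.27 ± 0.20) and Bhlhe40 (0.65 ± 0.19), repressors that are also induced by cytokines. Cry1 read 89.7, 84.0 and 53.8 in the DNFB-treated ears, against 90.8, 114 and 98.3 in the control ears and did not pass (-0.44 ± 0.26). Clock differed by 0.08 ± 0.09 at its brightest of 4 probe sets, while 2 of the others were called lower. The hour of harvest is not given in the sources used here. By the labels the treated and the control ears came from the same 3 females.

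Of 13 genes of the glucocorticoid receptor and its targets, 1 rose and 8 fell (7.69% and 61.5%, against 19.0% and 24.0% of all genes). Their median was -0.76, and 0 rose and 6 fell with run as a fixed block. Tsc22d3, the glucocorticoid-induced leucine zipper gene, read 269.7, 351 and 344 in the DNFB-treated ears, against 654, 907 and 1165 in the control ears (-1.47 ± 0.26, adjusted p = 0.0016). Cdkn1c, a cell cycle inhibitor, read 94.1, 115 and 103 in the DNFB-treated ears, against 380.2, 349 and 364 in the control ears, and Zbtb16, a zinc finger repressor, 69.3, 77.1 and 108 in the DNFB-treated ears, against 223, 193 and 232 in the control ears. None overlapped. The receptor gene Nr3c1 itself fell by 1.15 (adjusted p = 7.5e-05). Per1, a member of both lists, counts in each. The 1 rise was Hsd11b1 (0.51 ± 0.13), which makes active glucocorticoid in tissue, and Dusp1 and Anxa1 did not pass (-0.40 ± 0.32 and 0.16 ± 0.08). With mouse as a block Dusp1 passed (adjusted p = 0.0274).

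**Figure D5:**
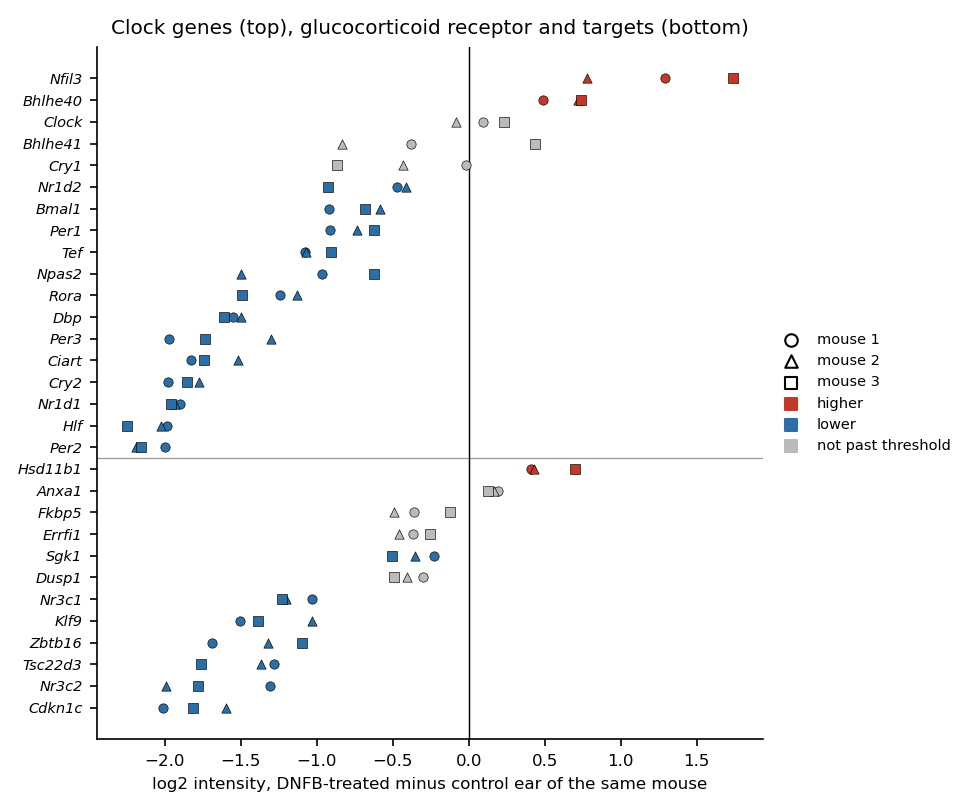
Log2 intensity of the DNFB-treated minus the control ear of the same mouse for clock genes (above the line) and for the glucocorticoid receptor and its targets without Per1 (below it), with 1 symbol per mouse (n = 3). Red genes were higher, blue genes lower and grey genes not past the threshold. Per2, Hlf and Nr1d1 lie near -2 in every mouse.

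Retinoid genes changed about as often as all genes. Of 21 genes of the aryl hydrocarbon receptor and of retinoids, 5 rose and 7 fell (23.8% and 33.3%, against 19.0% and 24.0% of all genes). Their median was -0.32, and 3 rose and 4 fell with run as a fixed block. Aldh1a3 and Aldh1a1 both make retinoic acid. Aldh1a3 read 362, 539.7 and 638 in the DNFB-treated ears, against 20.4, 13.1 and 17.1 in the control ears (4.91 ± 0.36, adjusted p = 8.5e-06), and Aldh1a1 88.8, 86.1 and 113 in the DNFB-treated ears, against 282, 286 and 319 in the control ears (-1.63 ± 0.14, adjusted p = 2.0e-05). The enzymes thus changed in opposite directions with no overlap in either. Crabp2, which carries retinoic acid to the nucleus, rose 2.67-fold, and Rdh10, which makes retinaldehyde, differed by -0.28 ± 0.12 without passing, although 1 of its 2 probe sets was called lower.

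The receptors that give the study its purpose were near the floor in wild-type ears. Cnr1 read 16.3, 10.9 and 8.75 in the DNFB-treated ears, against 9.29, 17.0 and 6.04 in the control ears, at 1 of its 2 probe sets, the other being under 16 on every array. Cnr2 read 28.1, 15.9 and 27.9 in the DNFB-treated ears, against 12.3, 18.1 and 7.84 in the control ears (0.95 ± 0.38, adjusted p = 0.072). The groups overlapped for both, and neither gene passed, although Cnr2 did with arrays centred (adjusted p = 0.0334), without control ear 2 (0.0376) or without DNFB-treated ear 2 (0.0431). In the mice labelled Cnr1-/-/Cnr2-/- the same Cnr2 probe set read 30.2, 39.4 and 28.6 in the DNFB-treated ears, against 21.3, 9.85 and 10.2 in the control ears, and that Cnr1 probe set 19.9, 4.88 and 5.74, against 13.7, 11.2 and 8.54. No DNFB-treated ear of the mice labelled Cnr1-/-/Cnr2-/- was thus below the wild-type ones for Cnr2, so these probe sets do not separate the genotypes and the Cnr2 values cannot be read as intact transcript. Which part of each gene the knockout removes is not given in the sources used here. The same contrast in the ears labelled Cnr1-/-/Cnr2-/- had 2837 of 13383 genes higher and 3286 lower. It shares no array with the wild-type contrast. Both come from 1 fit with the same filter and a shared estimate of the spread, so the overlap of their calls is not an independent replication. Of the wild-type calls, 2191 higher genes (86.1% of the wild-type and 77.2% of the other list) and 2528 lower genes (78.6% and 76.9%) were called alike there, and 1 gene oppositely. The test of the difference between the responses called 1 of 13383 genes (0.00747%), Slco1a5, an organic anion transporter, whose control ears were under 16 in the wild type and averaged under 16 in the other mice. That call was lost with mouse as a block and with run as a fixed block. None of the genes named above passed that test, which does not show that the responses are equal.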

How the data were processed

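The deposited values are linear intensities per probe set from Mouse 430 2.0 GeneChips, which the authors made with GCRMA per the submitters' processing notes (version not given in the sources used here). The log2 of these deposited intensities was taken with no pseudocount. A probe set was tested where 3 or more of the 12 arrays reached an intensity of 16; 871 probe sets reached 16 in exactly 3 arrays and 1136 in exactly 2. limma 3.58.1 (R 4.3.3, lmFit and eBayes) was fitted with 1 coefficient for each of the 4 groups of 3, so all groups share the estimate of the spread, and the Benjamini-Hochberg adjustment covered all 29460 probe sets tested, with a threshold of 0.05. Figures were drawn with matplotlib 3.10.9 and tables joined with pandas 2.3.3 (Python 3.11.15). The script was tested on simulated data.

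Of 45101 probe sets, 34958 carried 1 gene symbol in GEO's platform annotation, 932 several and 9211 none; 34754 were updated by Entrez ID, and none was named from a probe set with several. A gene takes its tested probe set of highest mean log2 intensity; 6441 genes had more than 1, and 116 of them had probe sets called in both directions, among list genes Nfe2l2, Nip7, S100a10, Sod2 and Trib3.

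The members and lists were chosen with earlier results of these data known. Named genes were the 10 highest and 10 lowest of those at 16 or above on all 6 arrays, called and without overlap; the 10 with the smallest p; the 5 highest bounds each way; up to 4 called and 2 uncalled genes of each of 31 lists; and Cnr1 and Cnr2. Not all are printed, and marker genes, Gja1, Myc, Nr3c1, Per1, Bmal1 and the few genes against their list were added after their values were seen. Lists carry no set test; their counts are set beside the 19.0% higher and 24.0% lower of all genes. Both ears of a mouse carry its number in the labels, so mouse pairs them; their deviations from the group means correlated at 0.00633 to 0.0468 in 3 mice. Separate mice are biological replicates. Fluidics runs were separated by gaps of over 30 minutes in the hybridization times, and all chips were of 1 lot. Alternatives were other filters, scalings, pseudocounts and eBayes settings, mouse or run as a block, run 1 alone, a minimum fold (treat), the median over probe sets and leaving out each wild-type array.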

Additional observations from a re-analysis of the deposited data

Results flagged for a closer look

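The responses in wild-type mice and in mice labelled Cnr1-/-/Cnr2-/- differed for 1 gene by the test of the difference itself, a call that rests on values under the floor of 16. Slco1a5 read 22.9, 20.6 and 28.5 in the DNFB-treated ears, against 2.12, 2.25 and 1.88 in the control ears, at least 1.49-fold higher (3.51 ± 0.14, adjusted p = 4.4e-07). The DNFB-treated minus control difference in ears labelled Cnr1-/-/Cnr2-/- was 1.31 ± 0.14, with geometric means of 18.2 and 7.31. The wild-type response minus the other was 2.20 ± 0.20 on the log2 scale (adjusted p = 0.0164 over all probe sets), and the call was lost with mouse as a block, with run as a fixed block and without wild-type control ear 1 or 3. All 3 wild-type control ears and the control mean of the mice labelled Cnr1-/-/Cnr2-/- lay under 16, and with values below 16 set to 16 the wild-type difference itself was 0.57, so the size of the difference between the responses is not given by these arrays.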

How the results depend on the processing

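Run as a fixed block left 2475 probe sets higher and 3149 lower (1450 and 1613 genes), and run 1 alone, with 1 DNFB array, 2593 and 3371 (1528 and 1762 genes). Testing against a 1.5-fold change left 1277 and 908 (802 and 492 genes), and centred arrays left 2069 genes lower. Leaving out 1 wild-type array gave 3736 to 3869 probe sets higher and 5178 to 5747 lower, and 2155 to 2236 genes higher and 2586 to 2734 lower. Mouse as a block gave 2299 genes higher and 2868 lower, and beyond the calls given above it took that of Alox8 and Msmo1 and added Errfi1 and Itgae among named genes. The test of the difference between the responses called 3 genes with trend and robust eBayes, 0 with mouse as a block, 0 with run as a fixed block and 0 to 2 without 1 wild-type array (0 without control ear 1 or control ear 3, 2 without DNFB-treated ear 1 or DNFB-treated ear 3); these alternatives were chosen after seeing the data. Of 154 called among 218 named genes, 24 lost the call with run as a fixed block, 22 within run 1, 39 against a 1.5-fold change and 5 to 8 without 1 wild-type array. Clock turned to -0.51 with the median over its probe sets. The causes of these shifts were not tested. GCRMA estimates at low intensity set the limit on genes under 16, given here as bounds.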
